A study of Mus musculus with 4 samples.

Results

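The change of wild-type mouse embryonic stem (ES) cells into day 6 cells labelled neural progenitors was described across 14086 genes, out of 23235 in the table. These genes were chosen for reaching 1 FPKM, as deposited, in at least 1 of the 2 wild-type libraries. FPKM is the number of fragments for a gene divided by its transcript length and by the library's mapped fragments, so levels can be set beside each other between genes. WT_ES came from ES cells of the J1 background, strain 129S4/SvJae and wild-type genotype, grown with serum and leukemia inhibitory factor (LIF) and taken at day 0 after passages away from feeder cells. WT_NP came from the same cells after 4 days in suspension, where they gather into aggregates called embryoid bodies, and 2 further days with retinoic acid, taken at day 6. A second pair, DKO_ES and DKO_NP, went through the same steps without Dnmt3a and Dnmt3b, the pair of enzymes responsible for de novo DNA methylation, and is used here only beside the wild type. Each group has 1 library, so no difference below has a replicate check and none was tested: every value compares these libraries, not the conditions. Whether the lines are single clones is not stated in the sources used here. The targeted genes were read in all 4 libraries: Dnmt3a was at 26.7 and 25.7 (scaled FPKM, defined below) in the wild-type pair, day 0 first, and at 9.82 and 4.56 in the knockout pair, and Dnmt3b at 106 and 14.9 against 11.1 and 5.75. Which exons were deleted was not used here, so reads from the rest of these genes cannot be set apart.

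ES cells hold the capacity to form every tissue of the embryo through a small circuit of transcription factors led by Pou5f1, Sox2 and Nanog, kept active by LIF. When LIF is withdrawn and cells gather into embryoid bodies, they begin to form all germ layers at once. Retinoic acid, the active form of vitamin A, then binds nuclear receptors that sit on DNA and turns on Hox genes and enzymes of its own breakdown, and it gives neural tissue a hindbrain to upper spinal cord character.

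Levels are given below as scaled FPKM: each library's FPKM was divided by its median ratio to the mean of all 4 libraries. A gene was counted as higher or lower in WT_NP when log2((scaled FPKM + 1)/(scaled FPKM + 1)) reached 1, a 2-fold difference on that scale, which understates differences of low genes. By this rule 2287 of the 14086 genes (16.2%) were higher in WT_NP and 1592 (11.3%) were lower, with a median log2 ratio of 0.01. At 4-fold the counts were 640 and 393, and at 32-fold 103 and 29, so the share of higher genes among those counted grew with the size of the difference. A level under 1 in WT_ES and of at least 10 in WT_NP was seen for 193 genes, and the opposite for 63. With small RNAs and unnamed models left out, 99 and 41 of these remained. Among the 14086 genes 167 were listed at 0 in WT_ES and 39 in WT_NP. The part of such genes in the higher share was not tested. With the values as deposited the median log2 ratio moved to -0.82 and the counts to 901 higher and 5876 lower, which put 13.3% of all counted genes on the higher side in place of 59%. Scaling by housekeeping genes moved the median to 0.31 and that share to 76.1%. Scaling by summed FPKM put it at 48%, and counting only genes that reached 5 FPKM put it at 49.6%. List values below are therefore read against the all-gene median, and list counts against the 16.2% higher and 11.3% lower of all genes. A gene under 1 FPKM in WT_ES passed the filter only through WT_NP, so it could not be counted as lower. The higher counts of lists with many such genes are in part set by the filter. Hox, mesoderm, endothelium and neural tube factors are such lists. Of 166 named genes counted as higher, 122 stayed past 2-fold as deposited, and of 97 counted as lower, 79 stayed so under housekeeping scaling. None changed direction under any scaling. That outcome was fixed in advance, since the scalings moved ratios by less than 2-fold, so it is no check. The steps between low values put the FPKM denominator of WT_NP at about 2.58 times that of WT_ES. Approximate reads, however, summed to 44.6 M in WT_NP and 37.4 M in WT_ES, so the difference in depth is uncertain. At 1 FPKM or more as deposited were 13125 genes in WT_ES and 12756 in WT_NP, a cutoff that lies at unlike scaled levels in the 2 libraries. The filter also used FPKM as deposited. A gene such as Hoxd8, at 0.158 and 1.39 scaled with a log2 ratio of 1.04, can therefore be under it and go uncounted. The program that computed FPKM is not given in the sources used here, and an exact 0 can be a failed estimate: Lars2, a mitochondrial tRNA synthetase gene needed by every cell, was listed at 0 in WT_ES and stood at 5490 in WT_NP and 8260 in DKO_ES. Values of 0 are given as listed, with no fold. Fold ranges in brackets are 95% intervals from approximate read numbers. They cover counting error only and may be too narrow, since those read numbers are rough.

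**Figure D1:**
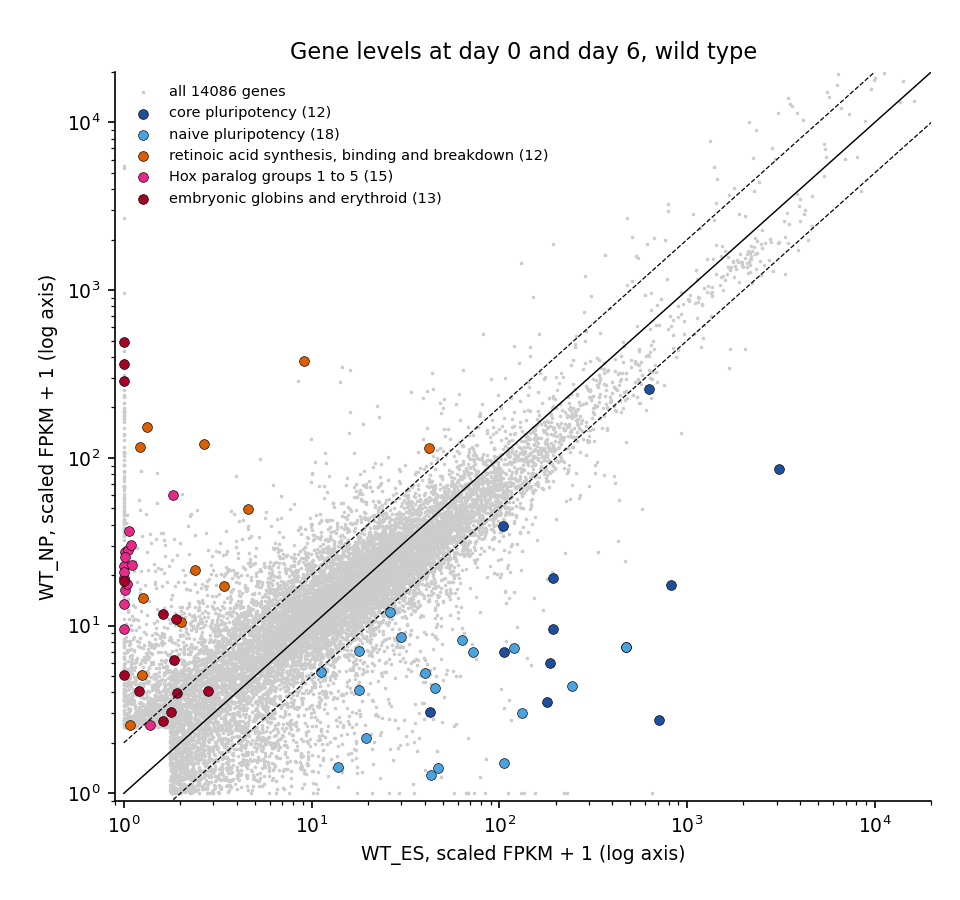
Scaled FPKM plus 1 of all 14086 genes in WT_ES (x axis) and WT_NP (y axis), both on log axes, with 5 gene lists in colour; the solid line marks equal levels and the dashed lines a 2-fold difference. All 12 core and 18 naive pluripotency genes lie under the lower dashed line, and all 12 retinoic acid handling genes lie above the upper one.

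The ES cell label fitted its markers, and the day 6 label fitted in part. All 10 ES cell markers were lower in WT_NP, and their summed level was 5810 in WT_ES and 157 in WT_NP. Of 11 measured neural progenitor markers 9 were higher and 1, Sox2, was lower, and their sum was 230 in WT_ES, of which Sox2 made up 192, and 238 in WT_NP. Markers of other tissues were higher beside them. The sum of 9 endoderm and visceral endoderm markers was 4.94 in WT_ES and 189 in WT_NP, that of 8 mesoderm markers 2.74 and 90.8, that of 5 endothelial markers 6.77 and 65.9, and that of 5 erythroid markers 1.4 and 1140. Postmitotic neuron markers went the other way, from 167 to 22.8. The 6 glial markers summed to 6.7 and 12.2, with Aqp4 listed at 0 in WT_ES. Fibroblast or feeder markers summed to 14.7 and 30, and among them Dcn and Lum were listed at 0 in WT_ES while Col1a1 was at 6.77 and 15.6 and Thy1 at 3.5 and 0.283. The 6 trophoblast markers summed to 5.69 and 23, with the trophoblast hormone gene Prl3d1 listed at 0 in both libraries, and the 4 neural crest markers to 11.5 and 6.39. That crest sum rests at day 0 on Foxd3 (9.85 and 0.0665), which also belongs to the formative list, while Snai2 was at 0.587 and 4.87. WT_NP is therefore called the day 6 library and not neural progenitors. In bulk RNA, fewer cells of a type and less RNA per cell cannot be told apart.

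**Figure D2:**
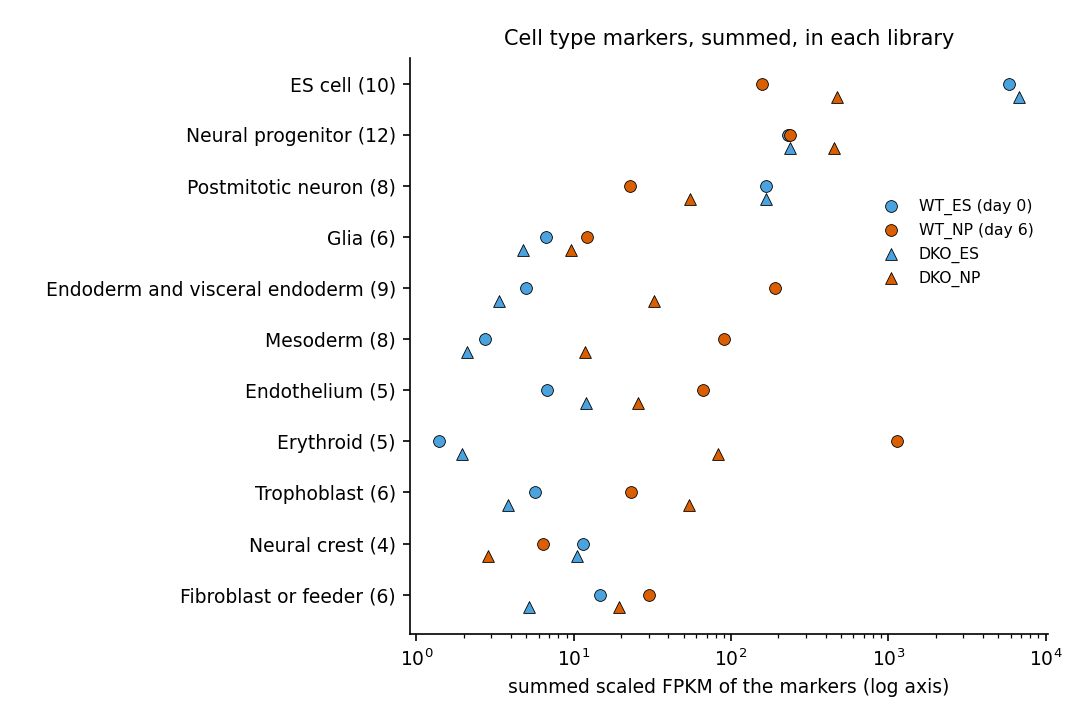
Summed scaled FPKM (x axis, log) of the markers of 11 cell types, with the number of markers in brackets, in the 4 libraries; circles are wild type, triangles the knockout, blue day 0 and orange day 6. ES cell markers sum to 5810 in WT_ES and 157 in WT_NP, and erythroid markers to 1.4 and 1140.

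The ES cell circuit was low across its whole list at day 6. All 12 core pluripotency genes were lower, with a median log2 ratio of -4.65 against 0.01 for all genes. Nanog, which holds ES cells in self-renewal, was at 193 in WT_ES and 8.55 in WT_NP, 22.6-fold lower [20.5 to 24.9]. L1td1, an RNA-binding protein of pluripotent cells, was 37.3-fold lower [33.7 to 41.5], at 185 and 4.96. The 2 least lowered were regulators that many dividing embryonic cells use: Sall4 was at 103 and 38.2, and Trim28, a corepressor of retroelements, at 623 and 258. A pseudogene of Nanog, Nanogpd, was at 77.9 and 0.248, but it is nearly identical to Nanog and may share its reads.

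All 18 naive pluripotency genes were lower as well, with a median of -3.32. Tcl1, which activates Akt kinase, was at 46.3 in WT_ES and 0.424 in WT_NP. Stat3, which carries the LIF signal, was at 25.3 and 11.1, one of the smallest differences of that list. Genes of the later, formative and primed states were lower too, 8 of 11 with a median of -2.76. Foxd3 was at 9.85 and 0.0665 and Etv5, a target of FGF signalling, at 124 and 8.88. Fgf5, the classic marker of the primed epiblast, was near 1 in both libraries, at 1.05 and 0.659, and Sox3 was at 3.24 and 5.19. Thus no stage of pluripotency represented in these lists had a higher member at day 6.

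Not every gene that marks ES cells was low. Lin28a, which blocks maturation of let-7 microRNA, was at 124 in WT_ES and 99.9 in WT_NP, and its relative Lin28b at 13.4 and 25. The RNA-binding Igf2bp1 stood at 125 and 96.0. Hmga2, a chromatin protein of embryonic growth and a let-7 target, was at 4.72 and 46.5, 9.85-fold higher [9.05 to 10.7], and was the only one of these 8 oncofetal genes that was counted as higher. Trim71 was at 92.1 and 41.0, the only one counted as lower. Each is 12.5% of the list, near the 16.2% higher and 11.3% lower of all genes. The list's median was 0.25 and changed sign to -0.71 with the values as deposited.

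Zfp42, a zinc finger gene also called Rex1, was among the 12 lowest ratios, at 470 in WT_ES and 6.5 in WT_NP. The 250 bases before its RefSeq start (build GRCm38.p6) are printed because they hold the octamer ATGCAAAT, the element that POU factors such as Pou5f1 bind, on the opposite strand. The capitals mark it, 186 to 179 bases upstream of the start.
Zfp42, chr8:43307010-43307259, minus strand: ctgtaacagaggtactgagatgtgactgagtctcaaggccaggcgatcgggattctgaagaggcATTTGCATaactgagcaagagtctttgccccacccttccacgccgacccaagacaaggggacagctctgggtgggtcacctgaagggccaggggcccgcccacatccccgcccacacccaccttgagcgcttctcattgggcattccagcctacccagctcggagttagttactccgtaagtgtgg
The octamer is in the promoters, 250 bases before to 50 after the start and either strand, of 532 of 27025 genes (1.97%) in the RefSeq table. A match of letters is not evidence of binding.

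Genes that handle retinoic acid were higher at every step of its route, as a measured list: 12 of 12 that passed the filter were higher, with a median log2 ratio of 3.29. The thirteenth gene, Aldh1a3, was under the filter at 0.166 and 0.214. Uptake was represented by Rbp4, the plasma carrier of retinol, at 3.59 in WT_ES and 48.4 in WT_NP, and by its receptor Stra6 at 0.263 and 13.6, which is 51.7-fold higher [35.6 to 78].

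Synthesis takes retinol to retinaldehyde and then to retinoic acid. Rdh10, which makes the first step, was at 2.42 and 16.3, and Dhrs3, which reverses it, was at 1.67 and 120, 71.6-fold higher [58 to 89.3]. Of the enzymes of the second step, Aldh1a2 was at 1.01 and 9.47 and Aldh1a1 at 0.0791 and 1.56. At day 6 the RNA of Dhrs3 thus stood far above that of Aldh1a2 and Aldh1a1. Protein and enzyme activity were not measured.

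Crabp1 and Crabp2 bind retinoic acid in the cytoplasm, Crabp2 passing it to receptors in the nucleus. Crabp2 was at 8.1 and 377, 46.6-fold higher [40.4 to 54], and Crabp1, already at 41.1 in WT_ES, was at 113. Breakdown rests on the Cyp26 enzymes. Cyp26a1 was at 0.336 and 152, Cyp26b1 at 0.214 and 115, and Cyp26c1 at 0.249 and 4.08, so the first 2 were among the 12 highest ratios of all genes that reached 5 FPKM.

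The receptors divided. Rarb was at 0.206 and 55.0, while Rara was at 26.4 and 30.2 and Rarg was 3.75-fold lower [3.51 to 4], at 46.4 and 12.4. Among the partner receptors Rxra was at 6.49 and 13, Rxrb at 26.1 and 26.4 and Rxrg at 0.5 and 0.224. The day 6 library therefore held Rarb above Rara and Rarg, in the reverse of the order at day 0. Nrip1, a corepressor that retinoic acid induces, was at 3.25 and 32, and the corepressor Ncor1 was at 43.3 and 60.9.

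**Figure D3:**
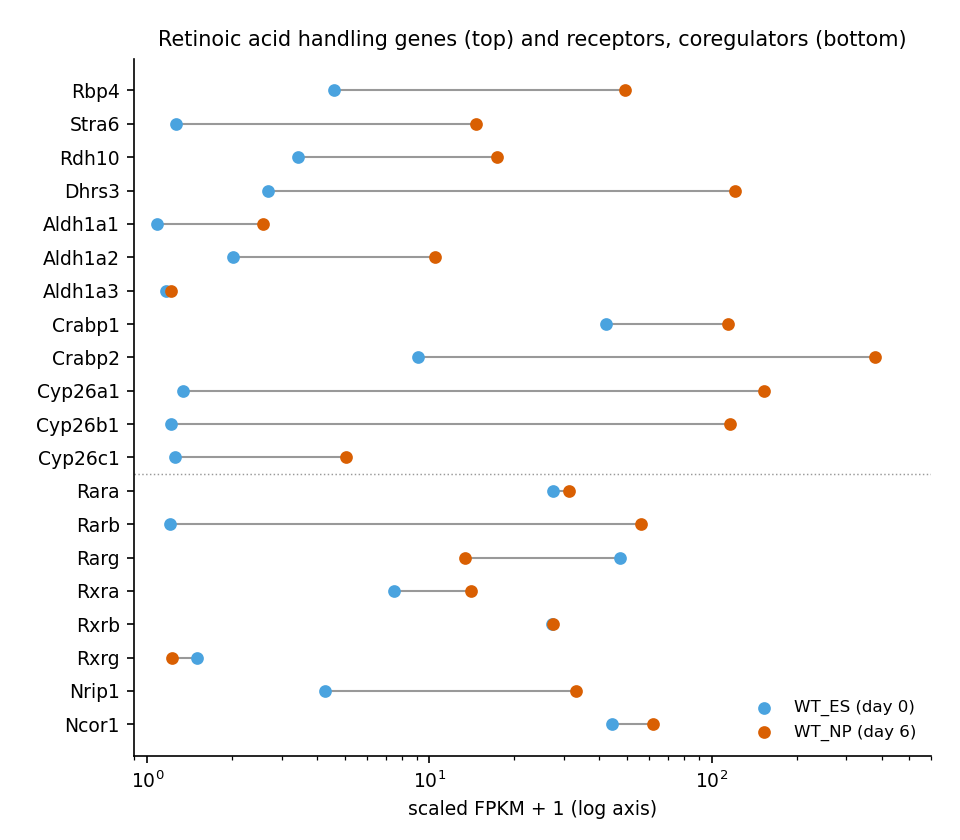
Scaled FPKM plus 1 (log axis) of 12 genes that transport, make, bind or break down retinoic acid, above the dotted line, and of 8 receptors and coregulators below it, in WT_ES (blue) and WT_NP (orange), 1 library each. The longest spans are those of Cyp26a1 (0.336 to 152) and Cyp26b1 (0.214 to 115), and Rarg runs the other way (46.4 to 12.4).

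Retinoic acid receptors, paired with Rxr, bind direct repeats of a 6-base element with 5 bases between the copies. The RefSeq promoters were searched on both strands for any ordered pair drawn from the elements AGGTCA or the variant AGTTCA or the variant GGGTCA or the variant GGTTCA, with 5 bases of any kind between, in the window from 250 bases before to 50 after the start. The pattern was in the promoters of 31 of 27025 genes (0.115%). Promoters were matched for 10927 of the 14086 genes (77.6%), and 6 of them held the repeat. The members that hold it are Hbb-y, Cyp26a1 and Rarb, which were higher, and Blvrb (39.3 in WT_ES and 22.4 in WT_NP), Ccdc19 (1.1 and 0.245) and Tmem90b (1.25 and 0.565), which were not past 2-fold once the pseudocount of 1 was added. The last 3 were chosen by their match and not by the rule for named genes. Matching reached 68.3% of higher genes and 75.7% of lower genes, under the 80% needed here, so a comparison of promoter features between higher and lower genes is void and is not given. The 250 bases before the start of the 3 higher genes are printed with the repeat in capitals, from the RefSeq table of build GRCm38.p6.
Rarb, chr14:16575477-16575726, minus strand: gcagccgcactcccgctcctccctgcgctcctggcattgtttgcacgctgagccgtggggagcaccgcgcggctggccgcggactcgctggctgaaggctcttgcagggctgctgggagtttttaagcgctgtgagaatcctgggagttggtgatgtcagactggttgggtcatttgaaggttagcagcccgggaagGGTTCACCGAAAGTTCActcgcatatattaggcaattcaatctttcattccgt
Cyp26a1, chr19:37697558-37697807, plus strand: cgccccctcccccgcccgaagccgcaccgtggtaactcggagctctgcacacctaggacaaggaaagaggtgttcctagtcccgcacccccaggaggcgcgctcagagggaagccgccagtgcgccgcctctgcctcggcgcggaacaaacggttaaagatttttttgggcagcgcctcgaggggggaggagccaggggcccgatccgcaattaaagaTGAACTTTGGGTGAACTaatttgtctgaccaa
Hbb-y, chr7:103853208-103853457, minus strand: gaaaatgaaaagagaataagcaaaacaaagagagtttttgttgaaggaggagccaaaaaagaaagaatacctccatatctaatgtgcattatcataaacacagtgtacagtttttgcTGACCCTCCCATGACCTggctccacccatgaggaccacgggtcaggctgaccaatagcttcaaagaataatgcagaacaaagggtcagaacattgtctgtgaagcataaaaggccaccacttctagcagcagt
In Rarb the first copy is GGTTCA and the second copy is AGTTCA on the gene's own strand, 53 to 37 bases before the start. In Cyp26a1 both copies are AGTTCA on the opposite strand, 32 to 16 bases before the start. In Hbb-y the first copy is AGGTCA and the second copy is GGGTCA on the opposite strand, 133 to 117 bases before the start. Rarb and Cyp26a1 are known retinoic acid response genes, and Hbb-y is an embryonic beta-like globin of primitive red cells. The match in Hbb-y is a match of letters only, and its use was not tested.

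Transcription factors known to respond to retinoic acid were higher in 11 of 12 cases, with a median of 4.5. Nr2f1 and Nr2f2, the COUP orphan receptors, were at 0.0217 and 21.9 and at 0.0365 and 44.5. Among the Hox cofactors of the TALE class, Pbx2 was at 17.6 and 59.6 and Pbx3 at 6.3 and 15.5, while Pbx4, at 4.93 and 3.97, was the exception of the list. Tshz1, a trunk zinc finger factor, was at 0.172 and 28.2. Stra8, known for the entry of germ cells into meiosis and first found as a retinoic acid response gene, was at 4.62 and 42.9, although the germline list around it was lower.

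Hox genes specify position along the body axis, with low paralog numbers used in the hindbrain and neck and high numbers in the trunk and tail. The 15 genes of paralog groups 1 to 5 had a median level of 0.0206 in WT_ES, where 5 of them were listed at 0. In WT_NP their lowest level was 1.57 and their median 21.8, and 14 of 15 were higher. The 24 genes of groups 6 to 13 had a median of 0.0691 in WT_NP and a highest level of 4.55, and only 4 of them passed the filter. Of those 4, 3 were counted as higher. Past group 5 the level fell sharply in Hoxa and Hoxc, while in Hoxb it fell by steps. In Hoxa, Hoxa5 was at 29.4 and Hoxa6 at 0.0728. In Hoxb, Hoxb5 was at 12.5, Hoxb6 at 4.55, Hoxb7 at 1.35 and Hoxb8 at 1.95, and of these Hoxb5, Hoxb6 and Hoxb8 were counted as higher. In Hoxc, Hoxc5 was at 24.7 and Hoxc6 at 0.39. In Hoxd, Hoxd4 was at 16.6 and Hoxd8, the next in the table, at 1.39.

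Hoxb2 was at 0.0677 and 35.4, Hoxb1 was listed at 0 and stood at 21.8, and Hoxc4 was at 0.0542 and 27.4. Hoxd1 was the weak member of the early set, at 0.378 and 1.57. Within the early set the level did not follow the paralog number: Hoxa5 stood above Hoxa2, Hoxa3 and Hoxa4, which were at 18.1, 15.4 and 21.9. Among the later groups Hoxb13 was at 0.217 and 1.79 and Hoxc13 at 0.887 and 0.0647. In DKO_NP Hoxb6 was at 37.1 and Hoxb8 at 14.9, against 4.55 and 1.95 in WT_NP, an untested difference.

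**Figure D4:**
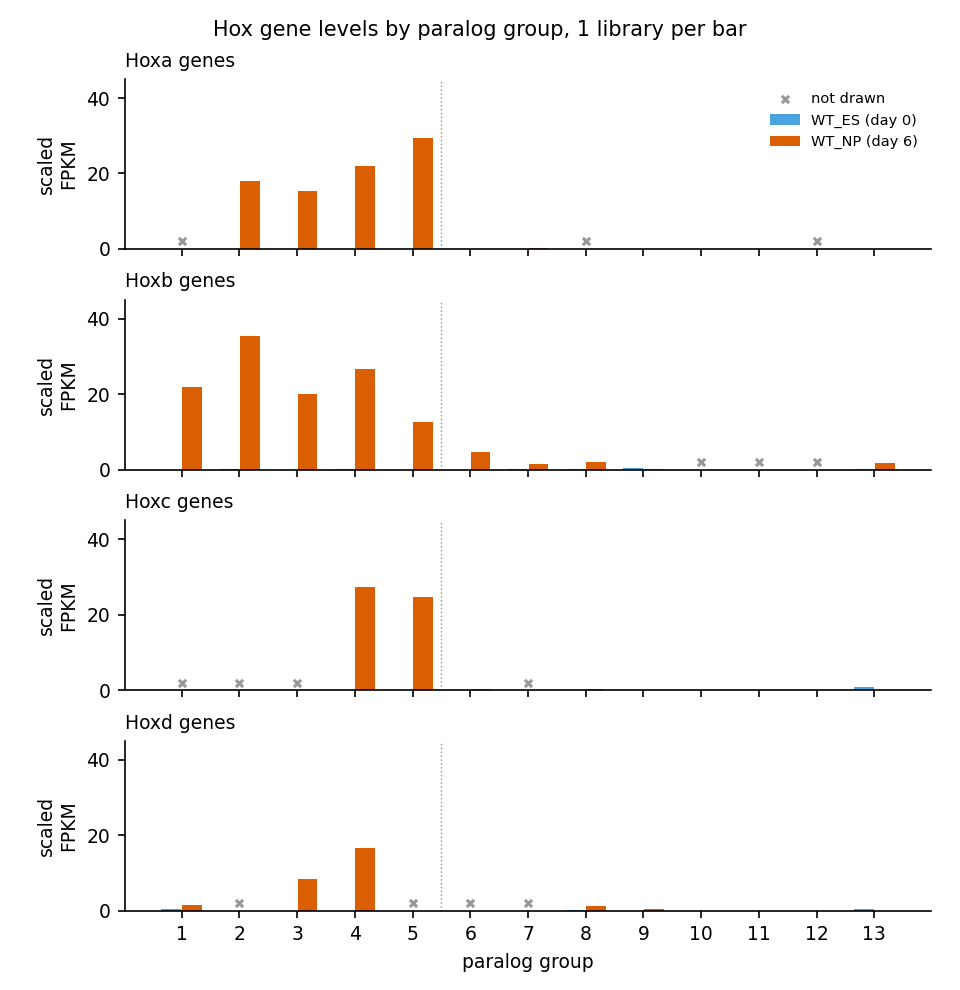
Scaled FPKM (y axis, linear from 0) of Hox genes by paralog group (x axis) in the 4 clusters, blue for WT_ES and orange for WT_NP, 1 library per bar; grey crosses mark paralogs not drawn. Groups 1 to 5, left of the dotted line, have a median of 21.8 at day 6, and no gene right of it exceeds 4.55.

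The posterior and streak factors that open the trunk programme were mostly absent. Only 4 of the 14 passed the filter. T, the Brachyury gene of primitive streak, was at 0.209 and 0.391, Mixl1 at 0.254 and 0.156 and Mesp1 at 0.331 and 0.0826. Cdx2, a posterior and trophoblast regulator, was at 0.149 and 3.71 and was the only one counted as higher, while Cdx4 was at 0.208 and listed at 0. Wnt3a, which maintains the tail bud, was at 0.132 and 1.25.

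Neural progenitor genes were higher in part, 11 of 18 with 3 lower and a median of 1.3, against 7 higher and 4 lower as deposited. Cdh2 (N-cadherin), which marks the neural plate, was at 1.39 and 33.6, 24.2-fold higher [21 to 28]. Sox11 was at 6.67 and 48.3, and Vim, an intermediate filament of progenitors and mesenchyme alike, at 60.6 and 168. Pax6, a marker of the dorsal and intermediate neural tube, was at 3.0 and 19.6. Sox2, which both ES cells and neural progenitors need, was at 192 and 18.1, 10.6-fold lower [9.87 to 11.4], and in DKO_NP it was at 61.9. Zic1 was at 0.107 and 5.29 while Zic2, at 15.9 and 4.87, was lower.

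Factors that pattern the neural tube were measured in the mixed library, so their reads cannot be assigned to neural cells. Of 31 listed only 15 passed the filter, of which 10 were higher and 2 lower, with a median of 1.51. Irx3 and Irx5, of the hindbrain and spinal cord, were at 0.517 and 21.1 and at 0.46 and 6.75. Dbx1, which marks interneuron progenitors at mid-height of the tube, was listed at 0 and stood at 6.93. Pax3, of the dorsal tube, was at 0.0912 and 4.7, and Foxa2, of the floor plate and also of endoderm, at 0.0501 and 11.1. Lhx2, of the forebrain and eye, was also higher, at 0.255 and 1.92. Gbx2, of the anterior hindbrain, was lower, at 10.3 and 4.29. Olig1, of oligodendrocyte precursors, was under the filter at 0.539 and 0.055. Otx2 of the forebrain and midbrain, which belongs here to the formative list, was at 22.3 and 1.23.

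No gene of the postmitotic neuron list was higher at day 6. It had 8 lower of 14 measured genes, with a median of -1.36, and its largest gap was Stmn2, a microtubule regulator, at 105 and 2.23, 47.1-fold lower [42 to 53.1]. Ina, a neurofilament gene, was at 19.7 and 1.26, and Crmp1 at 21.6 and 3.69. These neuronal genes were thus read at a fair level in the WT_ES library, and which cells of that culture held their RNA was not measured. Dpysl3, which acts in growth cones, was at 11.8 and 21.7 and was not counted. Neuronal transcription factors were mixed, 6 higher and 2 lower of 12: Lhx1 was listed at 0 and stood at 6.46, Onecut2 was at 0.318 and 5.84 and Pou3f2 at 0.0953 and 3.36, but Neurod1 was at 12.7 and 0.677. Among the glial genes that passed the filter Mbp, a myelin protein, was higher, at 1.53 and 6.16, and Aldh1l1 lower, at 2.98 and 0.826. Gfap and S100b, markers of astrocytes, were under the filter at 0.441 and 0.0861 and at 0.331 and 1.26.

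Notch genes, which hold progenitors back from becoming neurons, were divided with 5 higher (29.4%) and 6 lower (35.3%) of 17. Over all genes the shares were 16.2% and 11.3%. The Notch median of -0.22 changed sign to 0.07 under housekeeping scaling. Notch2 was at 11.7 and 35.0, Hey1 at 1.78 and 14.3 and Hes5 at 0.631 and 4.08. Rbpj, the DNA-binding partner of all Notch receptors, was at 92.7 and 32.7.

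Beside neural genes, those of mesoderm were higher in 19 of 21 cases (90.5%, against 16.2% of all genes), with a median of 2.15. Many of them, such as Foxf1a, Meox1 and Osr1, passed the filter only through WT_NP and could not be counted as lower. The other 2 listed genes were under the filter in both libraries. Foxf1a, of the lateral plate, was listed at 0 in WT_ES and stood at 41.8 in WT_NP. Meox1, of the somites, was at 0.216 and 14.2, and Osr1, of the intermediate mesoderm that forms kidney, at 0.0534 and 11.3. Tcf15, an early somite factor that ES cells also express, was the only lower member, at 34.7 and 2.43. Twist1 was at 2.67 and 14.

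Endoderm transcription factors were higher in 9 of 12 cases (75%, against 16.2% of all genes) and none was lower, with a median of 2.68. Gata6 was at 0.613 and 34.7 and Foxa1 at 0.275 and 13.3, while Hhex was at 3.54 and 3.82. Secreted proteins of the yolk sac followed with 13 of 18 higher: Ttr, a thyroid hormone carrier, was listed at 0 and stood at 24.9, and Apob, the structural protein of lipoproteins, was at 0.218 and 15.4. Apoe, also of this list, was already at 287 in WT_ES and was at 266 in WT_NP.

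Endothelium was represented by 16 higher (76.2%) and 2 lower (9.52%) of 21 genes, against 16.2% and 11.3% of all genes. Its median was 2.29. Cdh5 (VE-cadherin), the junction protein of blood vessels, was at 0.242 and 11.2, and the receptors Flt1 and Tie1 were at 0.801 and 14.3 and at 0.616 and 11.1. Pecam1, which ES cells also carry on their surface, was lower, at 28.8 and 7.58.

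In the erythroid list 10 of 13 measured genes were higher, with a median of 2.33. Its embryonic globins were each listed at 0 in WT_ES: Hbb-bh1 stood at 489 in WT_NP, Hba-x at 361 and Hbb-y at 288. The adult alpha globin gene Hba-a1 was at 0.00146 and 17.5, but near-identical copies can exchange reads, and Hba-a2 was at 0.133 and 0.0349. The factor Nfe2 was at 0.922 and 2.95, with a log2 ratio of 1.04, while Gata1 and Klf1, the master factors of red cells, had log2 ratios of 0.77 and 0.74 and were not counted. In DKO_NP the embryonic globins were at 15.3, 26.2 and 38.8, and Foxf1a was at 0.584, so these stood lower than in WT_NP, in a comparison of single libraries.

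Simple epithelium was also represented. Krt8 and Krt18, keratins of trophoblast and of endoderm, were at 40.1 and 249 and at 42.6 and 320. Of the trophoblast regulators Gata3 was at 0.24 and 2.48, Elf5 at 0.126 and 0.206 and Tfap2c at 17.0 and 3.38. Neural crest genes were higher in 7 of 9 cases (77.8%) and lower in 1 (11.1%), against 16.2% and 11.3% of all genes. Ets1 was at 1.61 and 16.8 and Snai2 at 0.587 and 4.87. Sox10, the defining factor of migrating crest, however, was at 0.538 and 0.603.

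**Figure D5:**
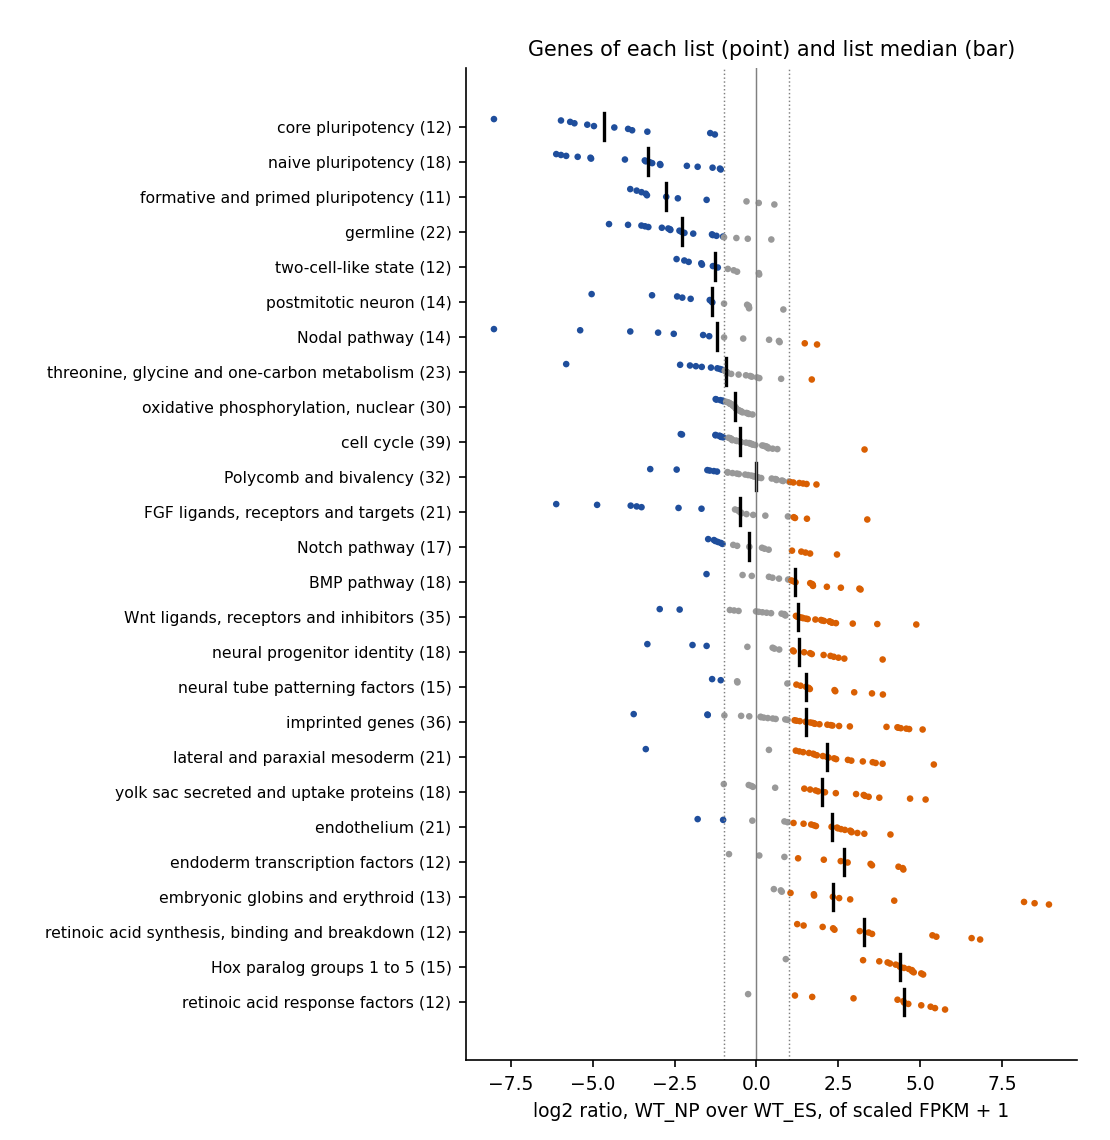
Log2 ratio of WT_NP over WT_ES (x axis, scaled FPKM plus 1) of the genes of 26 lists, 1 point a gene, with the number of measured genes in brackets; the black bar is the list's median and dotted lines mark 2-fold. Core pluripotency (median -4.65) and factors that respond to retinoic acid (median 4.5) stand at opposite ends; under the other scalings only the Notch and Polycomb medians among these lists change sign.

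Signalling genes differed by pathway. In the Nodal pathway, which maintains the epiblast, 7 of 14 were lower and 2 higher, with a median of -1.22. The ligand Nodal was at 35.2 and 5.28, its inhibitors Lefty1 and Lefty2 at 114 and 1.75 and at 33.1 and 1.36, and the signal carrier Smad3, in contrast, at 8.42 and 33.0. In the FGF pathway 4 were higher (19%) and 7 lower (33.3%) of 21, against 16.2% and 11.3% of all genes. The higher share was thus near that of all genes. The ligand Fgf17 was at 20.3 and 0.486 and the feedback inhibitor Spry4 at 39.3 and 0.378, 104-fold lower [77 to 144], while the receptor Fgfr2 was at 2.48 and 35.4, 14.3-fold higher [13 to 15.7]. Fgfr1 was at 28.3 and 34.3. Other feedback genes differed less: Spred1 was at 34.5 and 24.8 and Dusp6 at 30.3 and 20.5, and the ligand Fgf15 was at 10.9 and 7.33. As deposited, 1 gene of this list was higher and 13 were lower.

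BMP signalling, which patterns the dorsal neural tube and mesoderm, had 11 higher (61.1%) and 1 lower (5.56%) of 18 genes. The shares of all genes were 16.2% and 11.3%. The BMP median was 1.16. Bmp2 was at 0.0834 and 5.47, and Bmp5 was listed at 0 and stood at 3.44. Of the Id genes, direct targets that block neuronal factors, Id2 was at 9.39 and 93.2 and Id3 at 14.9 and 139, the 2 highest day 6 levels of the list. Id1 was at 28.4 and 56.4, and Id4 at 1.23 and 1.01. Smad7, an inhibitor, was at 31.1 and 10.1 and was the lower member. As deposited, 6 genes of the list were higher and 1 lower.

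Of the Wnt genes 20 of 35 were higher (57.1%) and 2 lower (5.71%), against 16.2% and 11.3% of all genes. Their median was 1.26. Receptors differed in direction: Fzd5 was at 38.8 and 4.12, 9.4-fold lower [8.67 to 10.2], and Fzd4 at 1.74 and 34.5, 19.8-fold higher [17.2 to 22.8], while Fzd7, with the highest receptor level at day 6, was at 27 and 64.9. The secreted inhibitors Sfrp1 and Sfrp5 were at 14.5 and 74.7 and at 1.05 and 59.6. In DKO_NP Sfrp5 was at 2.95. As deposited, 12 Wnt genes were higher and 5 lower.

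Hedgehog genes were higher in 6 of 12 cases (50%) and lower in 2 (16.7%), against 16.2% and 11.3% of all genes. The coreceptors Gas1, Cdon and Boc were at 1.2 and 38.1, 5.78 and 24.3, and 1.71 and 16.3, and Ihh, the ligand made by yolk sac endoderm, was at 0.043 and 7.1. Shh, the ligand of notochord and floor plate, was listed at 0 and stood at 0.424. Among ephrins and their receptors Epha2, an ES cell receptor, was at 64.6 and 7.22, whereas Epha7 was at 1.12 and 19 and Efnb2 at 3.74 and 33.3. The insulin-like growth factor genes were higher in 10 of 13 cases, and in 6 as deposited: Igfbp5, a binding protein, was at 0.239 and 82.6, Igfbp4 at 5.88 and 58.1 and Igf1 at 0.00709 and 7.0, and Igfbp2 was at 350 and 342.

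Cdh1 (E-cadherin) of epithelia and Cdh2 differed in the direction known as the cadherin switch, with both present at day 6. Cdh1 was at 167 and 65.5, so it still stood above Cdh2. Of 27 cadherin and epithelial-mesenchymal genes 13 were higher, and Cdh1 was the only lower one. No other epithelial gene of that list was counted as lower. Cdh6 was at 0.0993 and 10.4 and Cdh11, of mesenchyme, at 1.11 and 17.2. Basement membrane collagens were higher, with Col4a1 at 21.8 and 174 and Col4a2 at 10.9 and 92.6, and Fn1 was at 156 and 128. Of 26 matrix genes 15 were higher and none lower, against 6 higher and 5 lower as deposited.

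Imprinted genes, which are read from 1 parental copy, were higher in 22 of 36 cases and lower in 3, with a median of 1.51. As deposited 13 were higher and 6 lower. H19, a growth-limiting long RNA, was at 13.6 and 348, 25.6-fold higher [23.6 to 27.8], and its neighbour Igf2 at 7.5 and 286. Zim1 was at 0.38 and 34, and Airn, the antisense RNA of Igf2r, at 0.149 and 23.4; strand was not stated to be kept, so reads of Airn and of overlapping transcripts cannot be told apart. Gnas had the highest day 6 level of the list, at 162 and 550. Ascl2, of trophoblast, was at 3.46 and 0.589. The genes of this list that were higher include growth promoters and growth inhibitors.

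DNA methylation genes were counted in both directions. Of 19 genes 4 were higher (21.1%) and 3 lower (15.8%), near the 16.2% and 11.3% of all genes. The median of -0.31 lay at 0.00 with housekeeping scaling. The 3 lower were Dnmt3b, a de novo methyltransferase, at 106 and 14.9, its cofactor Dnmt3l at 112 and 2.58, 43.4-fold lower [37.5 to 50.6], and Tet1, which oxidises methylcytosine, at 107 and 12.7. Tet3 was higher, at 2.8 and 15.6. The maintenance enzyme Dnmt1 and its partner Uhrf1 were at 106 and 80.4 and at 144 and 76.3. Among Polycomb genes, which silence developmental loci, 6 were higher and 6 lower of 32 (18.8% each), also not far from the shares of all genes. Their median of -0.02 became -0.94 as deposited and 0.29 by housekeeping scaling. Phc1 was at 178 and 17.9 and Cbx7, the main Cbx protein of ES cells, at 59.4 and 10.1, whereas Phc2 was at 11 and 41.8 and Bmi1 at 2.62 and 9.45. Of the chromatin remodelling ATPases Smarca2 was at 0.473 and 7.33. The linker histone gene H1f0, known to mark differentiating cells, was at 22.2 and 75.6.

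Germline genes were lower in 18 of 22 cases and higher in none, with a median of -2.29. Mael, of the piRNA pathway, was at 28.5 and 0.94, Tex19.1 at 48.9 and 3.71 and the cohesin Stag3 at 45.7 and 9.16. Rpl10l, a testis copy of a ribosomal protein gene, was at 57.7 and 1.58, and reads of such copies are uncertain. Genes of the 2-cell-like state, a rare state of ES cultures, had 7 lower and none higher of 12, led by the Zscan4 family, whose near-identical copies cannot be separated: Zscan4a was at 8.05 and 0.667 and Zscan4d at 5.69 and 1.11.

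In the cell cycle list 39 genes were measured, with a median of -0.49. Of them 1 was higher (2.56%) and 9 were lower (23.1%), against 16.2% and 11.3% of all genes. The higher one was Ccnd2, at 3.31 and 41.5, 12.5-fold higher [11.5 to 13.7], while the related Ccnd1 was at 48.2 and 8.9, so Ccnd2 stood above Ccnd1 at day 6 and below it at day 0. Ccne1, which is abundant in ES cells, was at 111 and 22.1. Cdk4 was at 302 and 379, and Top2a, a proliferation marker, at 311 and 171. In DKO_NP Ccnd1 was at 39.9. Of p53 targets 5 of 18 were lower (27.8%, against 11.3% of all genes) and none higher. Among the lower was Pmaip1, which promotes cell death, at 15.1 and 3.24. With housekeeping scaling 1 p53 target was lower and 1 higher, and 2 cell cycle genes were lower. As deposited the lower counts were 15 and 26.

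Metabolic lists had medians below 0. In threonine, glycine and single-carbon metabolism 9 of 23 were lower and 1 higher, with a median of -0.92. Gldc, which cleaves glycine, was at 102 and 19.4, and Psat1, of serine synthesis, at 225 and 54.3. Nuclear genes of oxidative phosphorylation had 5 lower (16.7%, against 11.3% of all genes) and none higher of 30, with a median of -0.66. Atp5b was at 1220 and 514 and Cox4i1 at 839 and 542. The count depends on the scaling, since 0 of the 30 were lower with housekeeping scaling and all 30 as deposited. In the threonine, glycine and single-carbon list the lower count was 6 with housekeeping scaling and 19 as deposited. Glycolysis had 4 higher (16.7%) and 2 lower (8.33%) of 24, near the 16.2% and 11.3% of all genes. Its median of -0.14 changed sign to 0.20 with housekeeping scaling. Pkm2 was at 1590 and 1150 and the lactate exporter Slc16a3 at 53.5 and 128. Housekeeping genes had a median of -0.38, with Actb at 2200 and 1530, Hprt at 123 and 29.5 and B2m at 22.1 and 68.0.

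Gene length and level differed along with these ratios. The 363 genes with under 500 bases of exon had a median log2 ratio of 0.99. Among longer genes the median was -0.31 for 500 to 1000 bases, -0.26 for 1000 to 2000 bases and 0.25 for 8000 bases or more. The oxidative phosphorylation genes had a median exon length of 2249 bases. By mean level, genes under 1 scaled FPKM had a median of -0.43, those from 1 to 3 a median of 0.45 and those of 100 or more -0.42. The filter used FPKM as deposited, and WT_ES was then divided by 1.32 and WT_NP by 0.671. A gene thus passed at a lower scaled level through WT_ES than through WT_NP. The median of the lowest bin depends on this, so it cannot be read as a relation to level. The part of length and level in the group medians was not tested. Small RNAs were higher in 169 of 270 cases and lower in 30, with a median of 1.63, against 14.7% higher and 11.4% lower of 13021 protein-coding genes. Long noncoding RNAs were higher in 138 of 486 cases and lower in 42. The longest run of neighbouring higher genes held 18 microRNA and other small RNA genes on chromosome 12, the chromosome of Meg3, and another run joined 8 genes of the Hoxb cluster on chromosome 11. Such neighbours can be cut from 1 precursor or share a transcript, so they are not independent. Gdf3, Dppa3 and Nanog lay in a run of 5 lower genes on chromosome 6. Malat1, a nuclear RNA, was at 765 and 1980 in wild type but at 969 and 583 in the knockout pair.

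The knockout pair gives a second run through the same protocol with other cells. There 1656 of 14050 genes (11.8%) were higher at day 6 and 1570 (11.2%) lower. Of the genes that were higher in wild type 1071 were higher there too, which is 46.8% of the wild-type set and 64.7% of the knockout set, and 40 were lower. Of those that were lower 920 were shared, 57.8% and 58.6% of the sets, and 13 were higher there. Core pluripotency had a median of -3.58 in that pair against -4.65 in wild type, retinoic acid handling 2.93 against 3.29 and paralog groups 1 to 5 of Hox 4.63 against 4.39. These 3 lists had 12, 12 and 15 measured genes in both pairs; lists of other lineages passed the filter with different members and are not set side by side. Over the fixed markers, which use no filter, the sum was 32.3 in DKO_NP and 189 in WT_NP for endoderm, 11.8 and 90.8 for mesoderm, 82.1 and 1140 for erythroid cells, and 452 and 238 for neural progenitors. With 1 library in each group these differences were not tested.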

How the data were processed

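RNA-seq of rRNA-depleted total RNA gave 4 libraries; per the labels' protocols, 5 µg of RNA went through the TruSeq kit with 15 PCR cycles, and sequencing ran for 50 cycles from a single end. Bowtie, TopHat and the build mm9 are named, without versions or roles, in the submitters' processing notes. FPKM values, as deposited by the authors, cover 23235 named genes in a single table; 18 blank rows were left out. For the FPKM program and its annotation, the sources used here give no name.

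Each FPKM column was divided by its median ratio to the geometric mean of the 4 columns over 11334 genes at 1 FPKM or more in all; this divided WT_ES by 1.32, WT_NP by 0.671, DKO_ES by 1.25 and DKO_NP by 0.908. Log2 ratios used a pseudocount of 1. With 1 library a group no test was run. Read numbers were approximated from FPKM, exon lengths (GENCODE M21, GRCm38) and the step of low values; they gave Clopper-Pearson 95% intervals. They sum to more than the denominators the steps imply (37.4 M against 13.7 M in WT_ES, 44.6 M against 35.3 M in WT_NP). A count of 3 reads in a gene of 2 kb is 0.0832 scaled FPKM in WT_ES and 0.0633 in WT_NP. Python 3.11.15, numpy 2.4.6, pandas 2.3.3 and scipy 1.17.1 were used. The scaling recovered known folds in simulated data made from copies of the WT_ES column. These data held no noise and few changed genes, so they cannot show how the scaling handles a broad shift between libraries.

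The genes and the 48 gene lists were chosen with earlier results of these data known. Genes were named by rule: the 12 highest and 12 lowest ratios among genes at 5 FPKM or more, small RNAs and unnamed models left out; in each list the 4 largest ratios and the 2 highest levels in each library; every member of lists of up to 16 genes; all Hox genes; the 10 highest levels; housekeeping genes; and genes whose promoter is printed. Dnmt3a, Dppa3, Dusp6, Fgf15, Hba-a2, Id4, Lhx2, Spred1, Tcl1, the markers Gata1, Klf1 and Pax6, and the genes named for a motif match fall outside it and were chosen after their values were seen. Alternatives were other scalings, a pseudocount of 0.1, a filter at 5 FPKM and no filter. Some genes of the lists are counted in them but not reported here.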

Additional observations from a re-analysis of the deposited data

Results flagged for a closer look

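Of the named genes, 4 were at least 2-fold higher at day 6 in one genotype and at least 2-fold lower in the other; the difference between genotypes was not tested, with 1 library in each group. Dmrt1, a gonadal transcription factor, had a log2 ratio of -1.34 in wild type (15.7 in WT_ES and 5.6 in WT_NP) and 1.10 in the knockout pair. Hnf4a, of endoderm and liver, had 1.27 in wild type (0.696 and 3.1) and -1.04 in the knockout. Meg3, an imprinted long RNA, had 1.72 in wild type (89.3 and 296) and -1.49 in the knockout, where it was at 5.72 and 1.4. Lars2 had 12.42 in wild type, from a value listed at 0, and -2.50 in the knockout (8260 and 1460).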

How the results depend on the processing

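No paired analysis was possible because each group has 1 library. With the values as deposited 901 genes were higher and 5876 lower, against 2287 and 1592 as reported. Scaling by housekeeping genes left 1019 lower, and a filter at 5 FPKM left 1322 higher. Counts under summed-FPKM scaling (1869 and 2025), a pseudocount of 0.1 (2822 and 2060) and no filter (2350 and 1592) were within 1.5 times. Under the 3 other scalings 37 of 48 list medians kept their sign; the other 11 did not, among them Notch, Polycomb, glycolysis and DNA methylation. Of 166 higher named genes 122 stayed past 2-fold as deposited, and of 97 lower ones 79 under housekeeping scaling. No named gene past 2-fold changed direction under these alternatives, but that was fixed in advance. The scalings moved ratios by less than 2-fold, and a pseudocount or filter cannot change the sign of a ratio. The 4-fold alternative for promoter features was not run, since too few promoters were matched.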

Other observations

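Gene families gathered by the start of their symbols, chosen after the data were seen, add groups that the lists do not hold. Clustered protocadherins, cell surface proteins that give neurons separate identities, were higher in 16 of 24 measured genes and lower in none, with a median log2 ratio of 1.3; their genes share exons, so reads may be shared between them. Semaphorins and plexins, which guide axons and vessels, were higher in 13 of 26 and lower in 2. All 6 Gata factors were measured and 5 were higher. Cathepsins, proteases of the lysosome, were higher in 6 of 11 and lower in none, and apolipoproteins in 7 of 11 with 2 lower.

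Klf factors, several of which support pluripotency, were lower in 6 of 15 and higher in none, with a median of -0.7. Aminoacyl-tRNA synthetases were lower in 10 of 34 and higher in 2, of which 1 is Lars2. Mitochondrial ribosomal proteins were lower in 11 of 73, cytosolic ribosomal proteins in 5 of 80 and proteasome subunits in 5 of 39, with none higher in these 3 families and medians of -0.58, -0.4 and -0.57. Over all 14086 genes 16.2% were higher and 11.3% lower.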
